A study of Mus musculus with 4 samples.

Results

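Very wide accessible domains were taken from the chromatin accessibility table of mouse mesenchymal stem cells (MSCs) as the autosomal peaks of 8 kb or more, measured from the first to the last base of the peak. There were 1820 of them among 117282 peaks in all and 114745 autosomal peaks. Accessibility was measured with ATAC-seq, in which a transposase inserts sequencing adapters into open DNA, in 2 samples of MSCs from old mice of 18 to 22 months and 2 samples from young mice of 3 to 5 months. All 4 were kept at 2% O2 in αMEM with fetal bovine serum. The study's methods describe bone MSCs grown out of bone chips of C57BL/6N mice, wild-type males where an age of 3 to 5 months is given, and name no other allele or agent. They sorted such cells as negative for CD45 and TER-119 and positive for CD140a and Sca-1. The samples are cultured, sorted cells and stand for MSCs as they are after growth in a dish. Whether the replicates of a group came from separate animals is not given in the sources used here, so p-values measure the spread between these samples.

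A peak of open chromatin at a single promoter or enhancer is usually narrow, the length of a few nucleosomes. Very wide domains form where many neighbouring regulatory elements are open together, over a promoter and the first introns of a strongly used gene or over a cluster of enhancers. In cells of the connective tissue, such stretches are known over genes of the extracellular matrix, the actin cytoskeleton, immediate early transcription factors and the transcription factors that keep positional identity. The level of each domain is given here as its density, which is the number of counts per kb of the domain and per 1000000 counts of the library, divided by a scaling factor for each sample (relative log expression, RLE, the median ratio of a sample's peaks to their mean over the samples).

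Library sizes and densities assume that deposited values are counts per 10000000 library counts, a scale that was set and not measured. On it the 4 libraries held 28259470 to 32559794 counts. Peaks took 43.8% and 50.3% of these in the old samples and 57.5% and 62.9% in the young samples. The RLE factors, 0.813 to 1.15, remove that shift, and a fold change below is relative to the peaks as a whole. On the values as deposited, before RLE scaling, the median autosomal peak had a log2 fold change of -0.27 and the median wide domain one of -0.25. Each wide domain held 118 to 31260 counts in a sample, with a median of 761, against a median of 47 for all autosomal peaks, so that counting error at the median domain was 0.052 on the log2 scale. The genes that encode the sorted surface proteins lay in wide domains at their starts, with 15.2 kb at Pdgfra (CD140a) and 8.9 kb at Ly6a (Sca-1). Of 6 stromal marker genes, all 6 had a peak at the start and 5 of these were wide, the exception being Twist1 with 3.8 kb. Among blood markers, Ptprc, Spi1, Cd3e, Gata1 and Hbb-bs had no peak at the start, and Csf1r had one of 4400 bases at a density of 1.76 and 2.70 in old and 2.01 and 2.03 in young samples. Of 3 endothelial markers Tek alone had a start peak, at a density of 1.69 and 1.75 in old and 3.13 and 2.69 in young samples. The summed start density of the stromal markers was 15.1 and 18.4 in old and 15.1 and 15.1 in young samples. The part of these differences in the results was not tested. In bulk samples a smaller share of cells with an open domain and less opening per cell cannot be told apart.

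The sequences shown first are the promoters of 5 genes that the results turn on, all lying inside a wide domain, to show how much their base composition differs. They are RefSeq promoters of GRCm38.p6, 300 bases each from 250 before to 50 after the start, written 5′ to 3′ on the strand of the gene, with each CpG dinucleotide in capitals. Baiap2 stood in a domain that fell in old MSCs, Trpm8 and Mroh2a in domains that rose, and Hoxa10 and Jun in domains of gene lists described below.
Baiap2 (chr11:119942842-119943141, plus strand, 34 CpG): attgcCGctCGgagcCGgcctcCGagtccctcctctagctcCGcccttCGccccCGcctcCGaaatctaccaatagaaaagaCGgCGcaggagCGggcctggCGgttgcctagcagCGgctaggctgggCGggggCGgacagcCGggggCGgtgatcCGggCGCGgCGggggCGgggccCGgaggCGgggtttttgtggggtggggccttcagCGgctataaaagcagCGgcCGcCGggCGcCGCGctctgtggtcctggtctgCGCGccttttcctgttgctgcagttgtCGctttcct
Trpm8 (chr1:88306485-88306784, plus strand, 1 CpG): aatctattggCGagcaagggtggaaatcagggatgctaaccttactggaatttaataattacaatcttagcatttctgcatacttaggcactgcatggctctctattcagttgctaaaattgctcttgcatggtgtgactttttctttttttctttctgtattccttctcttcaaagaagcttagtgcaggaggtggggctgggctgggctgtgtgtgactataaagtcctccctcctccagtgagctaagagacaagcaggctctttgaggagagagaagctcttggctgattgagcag
Mroh2a (chr1:88226770-88227069, plus strand, 0 CpG): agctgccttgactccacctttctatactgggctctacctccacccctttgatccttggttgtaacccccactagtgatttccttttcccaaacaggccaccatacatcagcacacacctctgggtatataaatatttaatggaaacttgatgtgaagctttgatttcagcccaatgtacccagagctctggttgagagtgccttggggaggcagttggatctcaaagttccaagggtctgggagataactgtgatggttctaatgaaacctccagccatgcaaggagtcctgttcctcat
Hoxa10 (chr6:52240805-52241104, minus strand, 12 CpG): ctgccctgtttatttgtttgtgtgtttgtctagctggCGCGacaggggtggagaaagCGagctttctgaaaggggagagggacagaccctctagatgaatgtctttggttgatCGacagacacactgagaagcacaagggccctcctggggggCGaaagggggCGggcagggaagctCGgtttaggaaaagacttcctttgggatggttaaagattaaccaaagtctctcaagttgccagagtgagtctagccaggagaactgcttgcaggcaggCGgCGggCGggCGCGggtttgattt
Jun (chr4:95052173-95052472, minus strand, 15 CpG): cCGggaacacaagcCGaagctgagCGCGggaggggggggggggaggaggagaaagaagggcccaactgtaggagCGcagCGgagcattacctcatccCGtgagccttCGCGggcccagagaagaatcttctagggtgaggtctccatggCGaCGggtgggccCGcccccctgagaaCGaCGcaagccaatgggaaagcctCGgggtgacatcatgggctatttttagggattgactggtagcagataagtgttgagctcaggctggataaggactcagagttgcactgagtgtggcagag

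The Baiap2 promoter was 70.3% G and C and the Jun promoter 60.0%, whereas the promoters of Trpm8 and Mroh2a had 44.3% and 47.3% and nearly no CpG. Among the 31396 autosomal RefSeq promoters, 1557 lay inside 920 of the wide domains. Their median was 19 CpG per promoter, against 7 over all promoters. None of the 5 holds the AP-1 word TGACTCA or its reverse complement TGAGTCA, which 4.95% of the promoters inside wide domains and 5.26% of all promoters hold.

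Wide domains made up 1.59% of autosomal peaks, 12.2% of the bases in peaks (24.6 of 202 Mb) and 12.7% to 13.4% of the summed peak values in each of the 4 samples. Their median width was 10.7 kb, with 1059 of at least 10 kb, 211 of at least 20 kb and 25 of at least 50 kb. The widest were 91.4 kb over Col5a1, a fibrillar collagen, 85.9 kb over Runx1, a transcription factor of blood and bone, and 80.7 kb over Fn1, fibronectin. The next were 78.3 kb over 2010111I01Rik and Fancc, a DNA repair gene, 77.3 kb over Tnrc18 and 75.9 kb over Cald1, the actin-binding protein caldesmon. The Col5a1 domain (chr2:27884301-27975700) covered 58.3% of the gene with its start and had a density of 1.72 and 1.95 in old and 1.77 and 1.55 in young samples. The Runx1 domain (chr16:92605701-92691600) lay in 38.2% of the gene, 3895 bases from the nearest start, at 1.64 and 1.81 in old and 2.00 and 1.85 in young samples. Over Fn1 (chr1:71575001-71655700) the domain spanned the whole gene, at 2.55 and 2.54 in old and 2.81 and 3.11 in young samples. The 6 widest domains had mean densities between 1.70 and 3.04, on both sides of the median of all wide domains, 2.21, and the plot of width against density shows the spread.

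**Figure D1:**
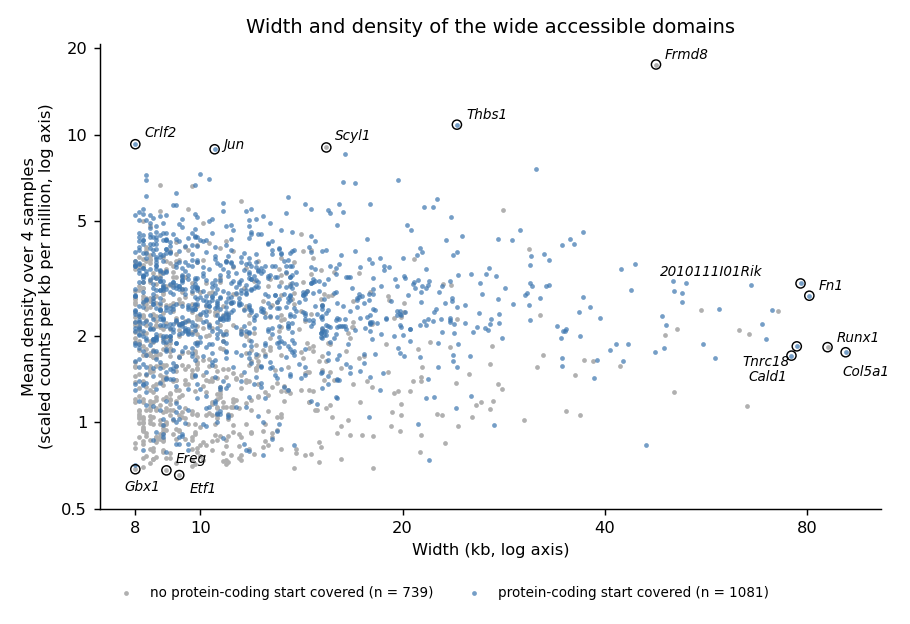
Width in kb (log axis) against mean density over 4 samples in scaled counts per kb, log axis for the 1820 wide domains, in blue where a protein-coding start is covered and in grey where none is; circles mark the 6 widest, the 5 densest and the 3 least dense. The densest domain, named for Frmd8, stands at 17.6 and the 6 widest lie between 1.70 and 3.04.

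The densest wide domain held the long noncoding RNA gene Neat1 and part of Frmd8 (chr19:5805601-5853300, 47.7 kb), at 19 and 12.6 in old and 19.1 and 19.4 in young samples, so that one old sample stood apart from the other 3. Its neighbour to the left, over the noncoding RNA gene Malat1 (chr19:5790001-5805400, 15.4 kb), had 7.85 and 9.14 in old and 9.70 and 9.44 in young samples. Thbs1 was second at 10.8 over all samples, and it is described with the domains that fell. Crlf2, a subunit of the receptor for the cytokine TSLP, had 9.34 and 7.19 in old and 10.1 and 10.5 in young samples (chr5:109551801-109559800). Jun, a subunit of AP-1, had 8.09 and 9.21 in old and 9.33 and 8.97 in young samples (chr4:95044501-95055000). Lowest in density were domains that overlapped Etf1 (0.654), Ereg (0.679), an epidermal growth factor family ligand, and the homeobox gene Gbx1 together with Agap3 (0.685).

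Wide domains lay over genes far more often than narrower peaks. A protein-coding start was covered by 1081 of 1820 (59.4%), against 12.4% of all autosomal peaks and 41.7% of the 6999 peaks of 4 to under 8 kb. A start was covered for 1 gene in 870 domains, 2 in 156, 3 in 44 and 4 or 5 in 11, and 1311 genes had a start in a wide domain. Another 573 lay over a gene without its start, and 166 (9.12%) overlapped no protein-coding gene, against 42.9% of all autosomal peaks. The domains over no gene were a median of 33 kb from a start. Because a longer region covers more annotation by its length alone, these shares describe the domains and carry no test. The plot of peak width shows the shares of both kinds over 5 classes of width.

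**Figure D2:**
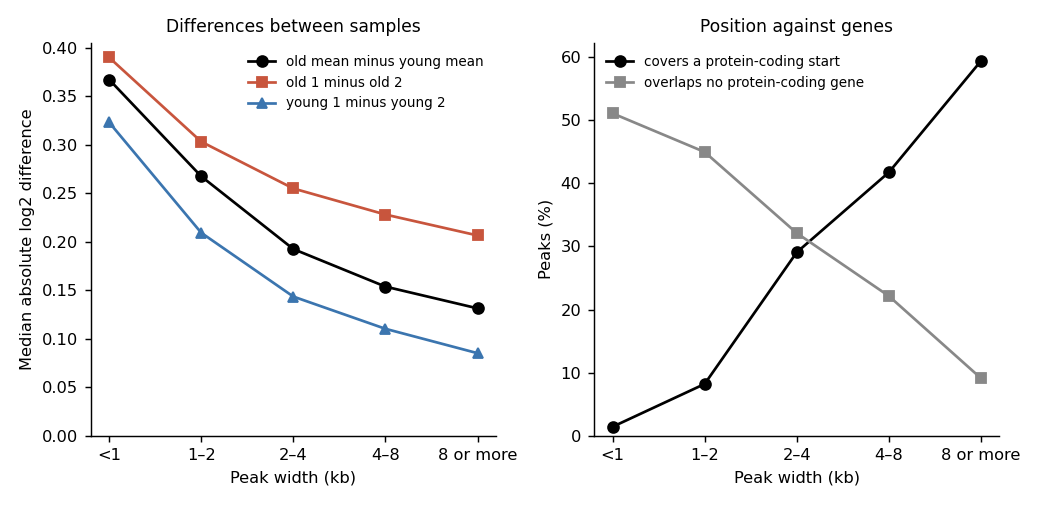
Median absolute log2 differences between samples (left) and percent of peaks at genes (right) over 5 classes of peak width in kb. Differences between old and young means went from 0.37 in peaks under 1 kb to 0.13 in wide domains and stayed between the differences of the old and the young replicates, while the share over a start went from 1.42% to 59.4%.

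Base composition also moved with width. The median GC content was 44.8% in peaks under 1 kb, 49.0% at 4 to under 8 kb and 50.1% in wide domains, and CpG dinucleotides went from 10.0 to 15.3 and 16.6 per kb. Wide domains with a covered start had 20.7 CpG per kb and a median density of 2.52, and those without one 12.3 per kb and 1.58. The AP-1 word, TGACTCA on either strand, occurred 0.223 times per kb in wide domains, 0.567 in peaks under 1 kb and 0.166 in the whole genome. At least 1 such word was in 89.8% of the wide domains. The RUNX word AACCACA or its reverse complement TGTGGTT was at 0.239 per kb in wide domains and 0.25 in the genome, and the TEAD word GGAATG or CATTCC at 0.612 and 0.591. A match is a description of the letters and no binding site was measured.

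Many wide domains lay close to another. With gaps of up to 50 kb, the 1820 domains formed 1315 loci, and 836 domains (45.9%) shared a locus with at least 1 more. The longest row was 12 domains over Fndc3b (221 of 290 kb on chromosome 3), followed by 8 over Zmiz1, a transcriptional coregulator (112 of 182 kb on chromosome 14), and 7 over Tns3, a focal adhesion protein (86.2 of 244 kb on chromosome 11). Chromosome 7 held most wide domains, 168 (9.23%, against 5.69% of autosomal peaks), and chromosome 13 the fewest, 48 (2.64% against 5.16%).

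The comparison of old with young MSCs asks whether these domains lose or gain accessibility with age. Few did beyond the spread between samples, among them domains over Sfrp1, Thbs1, Col3a1 and Fbn1 on the lower side and over Sned1, Sfi1 and Pitx1 on the higher side. At an adjusted p under 0.01 in limma, 0 wide domains fell, against 0.0307% of all peaks tested, and 2 rose, over Sfi1 and Sned1, against 0.0256%. Without adjustment, 214 wide domains (11.8%) had p under 0.05, against 16.3% of autosomal peaks. At an adjusted p under 0.05, 7 fell (0.771% of all peaks did) and 9 rose (0.351% of all peaks). Both old samples lay below both young samples in 321 wide domains (17.6%), against 24.2% of all peaks, and above in 433 (23.8%), against 23.2%. The 16 domains called at 0.05 kept their direction under each of the 14 alternatives run for them, but not their calls. The kept direction says little, because old and young samples did not overlap in any of the 16. Leaving out a sample could then hardly turn it, and some alternatives change the test and not the fold change. Leaving out young replicate 1 left 1 of the 16 past 0.05, and leaving out young replicate 2 left 0.

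Over all wide domains the median log2 fold change was 0.04 (quartiles -0.09 and 0.17), against 0.01 (quartiles -0.26 and 0.27) over all autosomal peaks, and 42.8% were lower in old MSCs against 49.5%. No wide domain reached a change of 1 on the log2 scale, which 4.64% of autosomal peaks did. The share lower in old depended on the scale, being 89.5% on the values as deposited, 33.1% after quantile normalization and 54.3% after a correction for GC content and width. The median of wide domains minus that of all autosomal peaks was 0.03, 0.01 without old replicate 2 and -0.02 with the GC and width correction. In 1199 wide domains (65.9%) the 2 old samples lay further apart than the means of old and young, and in 37.6% the 2 young samples did. Single samples vary more than means of 2, so these shares are no test of age. The median difference was 0.21 between the old samples and 0.09 between the young samples, on the log2 scale.

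**Figure D3:**
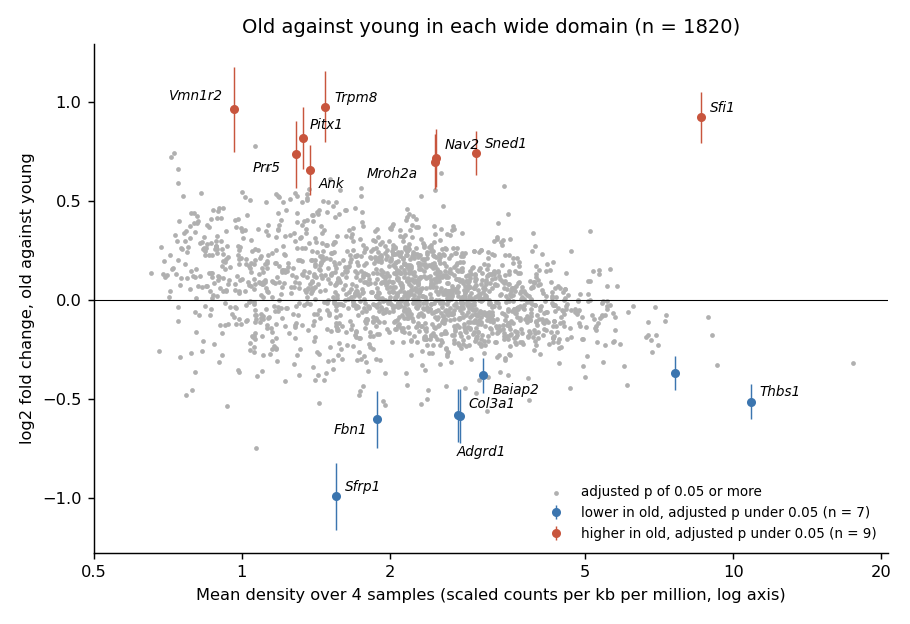
log2 fold change of old against young MSCs over mean density in scaled counts per kb, log axis for the 1820 wide domains; coloured points with bars (fitted value and SE) are the 7 lower and 9 higher domains at an adjusted p under 0.05, of which 1 is not labelled. The named domains spread from -0.99 over Sfrp1 to 0.97 over Trpm8, and the grey cloud lies higher at low density than at high density.

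The domain that fell most was over the last 3.53 kb of Sfrp1, a secreted inhibitor of Wnt signalling, and ran 5.27 kb past its end (chr8:23446101-23454900). Its density was 1.18 and 0.911 in old and 2.07 and 2.07 in young samples. Neither group reached the other, the log2 fold change was -0.99 (SE 0.17, adjusted p = 0.0142), and 19 of the 21 narrower peaks within 50 kb were lower too. Thbs1, the matricellular protein thrombospondin 1, was covered whole by a dense domain of 24.1 kb (chr2:118109101-118133200). It had 8.69 and 9.14 in old and 11.6 and 14 in young samples. This was a log2 fold change of -0.51 (SE 0.09, adjusted p = 0.0146), with both old samples below both young ones.

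Of the collagen and microfibril genes, Col3a1 and Fbn1 carried a domain that fell. The Col3a1 domain covered the last 2.81 kb of this fibrillar collagen gene and 16.2 kb beyond (chr1:45346901-45365900). It had 2.52 and 1.91 in old and 3.06 and 3.52 in young samples, a log2 fold change of -0.58 (SE 0.13, adjusted p = 0.0433). Of its sampled words of 31 bases 15.1% occur elsewhere in the genome, where reads cannot be placed with certainty, and the part of this in the result was not tested. Fbn1, the microfibril protein fibrillin-1, had a domain of 14.4 kb inside the gene (chr2:125445501-125459900) at 1.67 and 1.33 in old and 2.24 and 2.28 in young samples, or -0.60 (SE 0.14, adjusted p = 0.0472). Both groups were again apart in both genes.

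Others that fell were over Baiap2 and near Adgrd1. Baiap2, an adaptor between the membrane and actin, lay under a domain of 50.5 kb over 77.2% of the gene with the CpG-rich promoter shown above (chr11:119941701-119992200). Its values were 2.76 and 2.63 in old and 3.61 and 3.41 in young samples, a log2 fold change of -0.38 (SE 0.09, adjusted p = 0.0427). Around it only 2 of 14 narrower peaks within 50 kb were lower in old, so most neighbours had the other direction. The other domain overlapped no gene, 26550 bases from the nearest start, that of the adhesion receptor gene Adgrd1 (chr5:129061401-129070200). It had 2.35 and 2.10 in old and 3.32 and 3.36 in young samples, or -0.59 (SE 0.14, adjusted p = 0.0460).

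**Figure D4:**
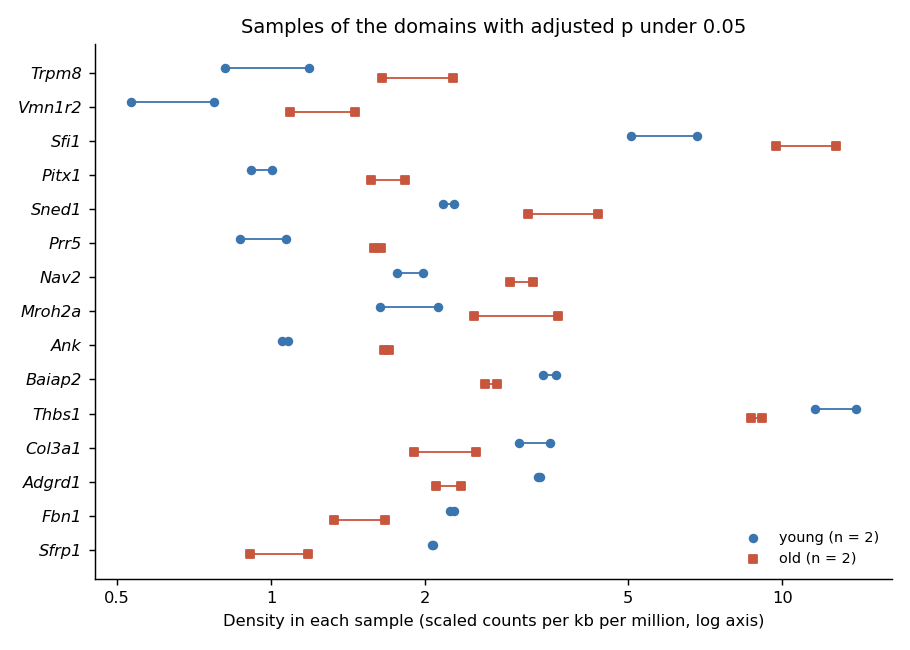
Density in each of the 4 samples (scaled counts per kb, log axis) of the named wide domains at an adjusted p under 0.05, ordered by log2 fold change; circles are young and squares old samples, joined within a group. In each domain shown the old pair and the young pair do not overlap.

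Among the 9 domains that rose, Sfi1 and Sned1 passed the stricter threshold. Sfi1 encodes a centrosome protein that binds centrin. Its domain (chr11:3183801-3200200, 16.4 kb) had 12.7 and 9.73 in old and 6.82 and 5.05 in young samples, a log2 fold change of 0.92 (SE 0.13, adjusted p = 0.00567). The domain also overlapped Drg1. Repeats made up 44.9% of its bases and 13.8% of its sampled words had a copy elsewhere, against a median of 2.47% over the wide domains, and what this contributes was not tested. Sned1 encodes a secreted matrix protein, and a domain of 66.1 kb covered 50.2 kb of the gene and 15.9 kb past its end (chr1:93250901-93317000). The domain also held a start of Mterf4 and overlapped Pask. The values were 3.18 and 4.36 in old and 2.28 and 2.17 in young samples, a log2 fold change of 0.74 (SE 0.11, adjusted p = 0.00812). A row of 4 wide domains over Crocc2 and Sned1 all had fitted values above 0, from 0.11 to 0.74, and the other 3 did not pass the test.

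Pitx1, the homeobox gene of hindlimb identity, was the developmental transcription factor gene with a domain that rose. The domain covered 9.25 kb of the gene and 3.05 kb beyond its 3′ end (chr13:55822001-55834300). It had 1.57 and 1.83 in old and 1.00 and 0.914 in young samples, or 0.82 (SE 0.16, adjusted p = 0.0217), and all 8 narrower peaks within 50 kb were higher in old. Inside Ank, a transporter of pyrophosphate, which restrains mineralization, 24.0 kb (chr15:27485101-27509100) stood at 1.70 and 1.66 in old against 1.08 and 1.05 in young samples. The log2 fold change there was 0.66 (SE 0.13, adjusted p = 0.0217). Nav2, a cytoskeletal gene of neurite growth, and Prr5, a subunit of the mTORC2 kinase complex, each had a domain inside the gene. For Nav2 (chr7:49086601-49094900) densities of 3.25 and 2.93 in old and 1.98 and 1.77 in young samples gave 0.72 (SE 0.15, adjusted p = 0.0272). For Prr5 (chr15:84694301-84703600) densities of 1.64 and 1.59 in old and 1.07 and 0.868 in young samples gave 0.74 (SE 0.17, adjusted p = 0.0433). Of the narrower peaks within 50 kb, those higher in old were 9 of 11 at Ank, 7 of 9 at Prr5 and 6 of 11 at Nav2. At Sned1 they were 4 of 6 and at Sfi1 2 of 4.

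The domains in Nav2 and Ank lay far from a start of a gene, at 128 and 18.4 kb, and the 300 bases outside exons with most AP-1 words are shown for each, on the plus strand of GRCm38.p6, with TGACTCA or TGAGTCA in capitals. The Nav2 window holds 3 of the 4 words of its domain and the Ank window 2 of 5. Per kb, the words stood at 0.482 in the Nav2 domain and 0.208 in the Ank domain, against a mean of 0.223 over wide domains. A link of these words to the rise was not tested.
Nav2 (chr7:49093688-49093987): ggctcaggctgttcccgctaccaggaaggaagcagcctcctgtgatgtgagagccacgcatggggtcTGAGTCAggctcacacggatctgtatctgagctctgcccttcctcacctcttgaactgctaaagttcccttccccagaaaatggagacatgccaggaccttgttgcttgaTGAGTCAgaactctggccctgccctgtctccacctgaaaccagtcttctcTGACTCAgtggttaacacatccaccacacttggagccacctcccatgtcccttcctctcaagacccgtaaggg
Ank (chr15:27506501-27506800): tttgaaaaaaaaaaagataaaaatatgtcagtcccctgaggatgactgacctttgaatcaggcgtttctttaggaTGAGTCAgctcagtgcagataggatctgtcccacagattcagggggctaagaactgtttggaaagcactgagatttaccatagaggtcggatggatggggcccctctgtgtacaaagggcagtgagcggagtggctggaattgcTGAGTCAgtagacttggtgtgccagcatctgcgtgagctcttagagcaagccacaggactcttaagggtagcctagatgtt

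Both Trpm8 and Mroh2a belonged to 1 stretch of chromosome 1. The domain over Mroh2a and the Ugt1a cluster of glucuronosyltransferase genes (chr1:88211301-88270500, 59.2 kb) had 3.64 and 2.50 in old and 2.12 and 1.63 in young samples, a log2 fold change of 0.70 (SE 0.14, adjusted p = 0.0255). The domain in Trpm8, the cold-activated cation channel (chr1:88294301-88311000, 16.7 kb), had 2.26 and 1.65 in old and 1.18 and 0.812 in young samples, or 0.97 (SE 0.18, adjusted p = 0.0181). Of the narrower peaks within 50 kb, 3 of 5 at Trpm8 and 1 of 2 at Mroh2a were lower in old. The Mroh2a domain also held a start of Hjurp, a centromere chaperone gene, and of Ugt1a1. Between the 2 domains lay a denser one of 21.5 kb over another start of Hjurp, named here after its values were seen. This one had 6.24 and 4.91 in old and 5.47 and 5.80 in young samples, so its groups overlapped. The last domain that rose overlapped no gene, 97220 bases from the start of the pheromone receptor gene Vmn1r2 (chr4:3061901-3070100). It had 1.46 and 1.09 in old and 0.773 and 0.532 in young samples, or 0.96 (SE 0.21, adjusted p = 0.0377), with 47.4% repeats and 13.4% of words in copies, whose part was not tested.

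Among the large changes that did not pass the test were those over Rnf217 and Smok2a. They were not the only ones of such size. Domains in Pdgfra, described below, had log2 fold changes of 0.66 and 0.66, and one over Prrx2 had 0.56, also without passing. The Rnf217 domain (chr10:31532601-31541000), in a ubiquitin ligase gene, had 3.15 and 1.99 in old and 3.19 and 4.28 in young samples, a log2 fold change of -0.56 (SE 0.18, adjusted p = 0.134). The Smok2a domain (chr17:13211501-13222500), over a sperm kinase gene, had 1.76 and 0.945 in old and 0.938 and 0.599 in young samples, or 0.78 (SE 0.25, adjusted p = 0.117). In the Rnf217 and Smok2a domains the groups did not overlap but the samples within a group lay far apart. Of the sampled words of the Smok2a domain 13.3% had a copy elsewhere, and what this contributes was not tested.

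Gene lists put the domains into the roles of their genes. They were drawn up with earlier results of these samples known, so the shares below are a description. A long gene also meets a domain more easily than a short one. A gene counted where a wide domain overlapped its body or the 5 kb before its start, which held for 2011 of 20807 autosomal protein-coding genes (9.67%). Immediate early and AP-1 genes were covered in 38 of 44 cases (86.4%) and cytoskeletal genes and targets of YAP and SRF in 40 of 50 (80%). Matrix genes followed with 25 of 43 (58.1%), cell cycle inhibitors and senescence genes with 9 of 16 (56.3%) and long noncoding RNA genes with 9 of 17 (52.9%). At the other end were osteoblast and bone genes with 4 of 24 (Runx1, Sparc, Alpl and Atf4) and chondrogenic genes with 1 of 13 (Comp). Blood and endothelial genes had 2 of 22 (Cd68 and Csf1r). Csf1r counted only through the 5 kb before its start, by a domain that overlapped Pdgfrb, and its own start peak was not wide. Cd68 shared its domain with Eif4a1 and Mpdu1. Transcription factors of nerve cells had a wide domain in 0 of 24, and none lay over Runx2, Sp7, Bglap or Bmp2.

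The 43 wide domains over 40 of 143 developmental transcription factor genes, among them Hoxa10, Hoxc9, Tbx15, Prrx1, Prrx2, Foxc1 and Pitx1, lay higher in old MSCs than the wide domains as a whole, while on the values as deposited their median was -0.15 and 31 of 43 were below 0. After RLE scaling, fitted values were above 0 in 38 of 43, with a median log2 fold change of 0.14 against 0.04 over all wide domains. Of all wide domains 42.8% were below 0. By the test 1 of the 43 rose (Pitx1), as did 0.351% of all peaks. The 43 are not separate genes, since Foxp1, Tbx15, Prrx1 and Prrx2 each gave more than 1 domain. Neighbouring wide domains shared a sign in 64% of pairs. Old and young samples did not overlap in 17 of the 43, 16 higher and 1 lower, where 23.8% of all wide domains (23.2% of all peaks) were apart on the higher and 17.6% (24.2%) on the lower side. The difference of the medians was 0.10, and it lay between 0.08 and 0.12 under the other scalings, pseudocounts, the GC and width correction and with each sample left out. Against the mean of the young samples the median was 0.09 in old replicate 1 and 0.15 in old replicate 2. The list was drawn up with earlier results of these samples known and is not independent evidence of its direction.

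Values in the widest of these domains show how far the samples spread. Hoxc9 with Hoxc10 and Hoxc8 (chr15:102958001-102992500, 34.5 kb) had 1.52 and 1.97 in old and 1.41 and 1.35 in young samples. Over Hoxa10, Hoxa9 and Hoxa7 (chr6:52215301-52242100, 26.8 kb) densities were 1.93 and 2.75 in old and 1.96 and 1.73 in young samples, so the groups overlapped. Tbx15 (chr3:99239601-99265600, 26 kb) had 2.44 and 2.54 in old and 2.32 and 2.28 in young samples. The first 2 are clusters of Hox genes, which set position along the body axis, and Tbx15 is a T-box factor of limb and skin mesenchyme.

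**Figure D5:**
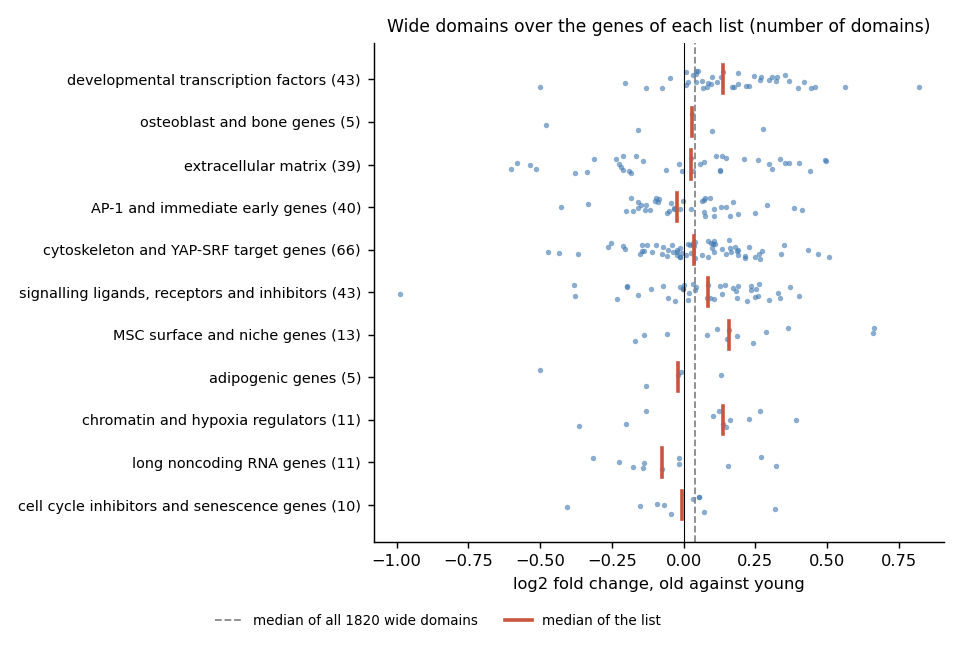
log2 fold change of old against young MSCs for the wide domains over the genes of each list with at least 5 domains (number of domains in brackets); points are domains, the short red line is the median of the list and the dashed line the median of all 1820. Developmental transcription factors have 38 of 43 points above 0 after RLE scaling (31 of 43 below 0 on the values as deposited), and matrix genes spread on both sides.

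Matrix genes lay on both sides. Of their 39 domains 19 had fitted values below 0 and 20 above, and 3 fell by the test, those of Thbs1, Col3a1 and Fbn1 described above. Over all peaks 0.771% fell. Groups did not overlap in 13 on the lower and 10 on the higher side, where 17.6% and 23.8% of all wide domains did not. Timp3, an inhibitor of metalloproteinases (chr10:86294701-86346900, 52.2 kb), had 2.64 and 2.61 in old and 2.72 and 2.55 in young samples, which overlapped. The 66 domains of cytoskeletal genes had 27 below 0 and 39 above, with a median of 0.03, and 1 fell. Over all wide domains 42.8% were below 0 with a median of 0.04, and 0.771% of all peaks fell. Myh9, non-muscle myosin (chr15:77773001-77843900, 70.9 kb), had 2.20 and 2.92 in old and 2.41 and 2.30 in young samples, and Lmna, lamin A/C (chr3:88464301-88517200, 52.9 kb), 2.67 and 3.52 in old and 3.10 and 2.91 in young samples. In both the old samples lay on either side of the young ones.

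Immediate early genes had 22 of 40 domains below 0, against 42.8% of all wide domains, and a median of -0.02. None passed the test, by which 0.771% of all peaks fell and 0.351% rose. The 2 old samples differed in the immediate early genes, with a median of -0.15 in old replicate 1 and 0.14 in old replicate 2 against the young mean. Accordingly, the difference from all wide domains changed sign with the sample left out, being 0.09 without old replicate 1 and -0.16 without old replicate 2. Fosl2, an AP-1 subunit (chr5:32131901-32165000, 33.1 kb), shows it, with 2.58 and 3.60 in old and 2.99 and 2.79 in young samples. Zfp36, which promotes decay of AU-rich mRNAs, shared a domain of 37.1 kb with Plekhg2 and Rps16 (chr7:28347501-28384600) at 3.84 and 5.51 in old and 4.50 and 4.54 in young samples.

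Signalling genes had 43 domains over 26 of 81 genes, with 15 below 0, 28 above, a median of 0.09 and 1 that fell (Sfrp1). Of all wide domains 42.8% were below 0, and 0.771% of all peaks fell. Smad6, an inhibitor of BMP signalling (chr9:63940101-64003500, 63.4 kb), had 2.12 and 2.40 in old and 1.99 and 1.89 in young samples, and Ski, a repressor of TGF-β signalling (chr4:155129001-155180200, 51.2 kb), 2.01 and 2.32 against 2.08 and 1.99. Surface and niche genes of MSCs had 13 domains over 8 of 24 genes, 3 below 0 and 10 above, with a median of 0.16 (-0.13 and 10 below 0 on the values as deposited) and 0 past the test. Cd44, the hyaluronan receptor (chr2:102866401-102903100, 36.7 kb), had 1.92 and 1.98 in old and 2.04 and 2.02 in young samples, and Csf1, the macrophage growth factor (chr3:107726601-107762600, 36.0 kb), 3.93 and 4.96 against 3.76 and 4.01.

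Pdgfra, a gene of the sort itself, had 3 wide domains, and all 3 were higher in both old than in both young samples. The one over its start (chr5:75148101-75163300) had 2.35 and 2.79 in old and 2.26 and 1.95 in young samples. The next, within the gene (chr5:75179801-75190700), had 1.12 and 1.66 in old and 0.855 and 0.860 in young samples. The last (chr5:75194501-75203000) had 0.815 and 1.01 in old and 0.605 and 0.538 in young samples. None of the 3 passed the test, with adjusted p of 0.297, 0.0815 and 0.103, and they were chosen after their values were seen.

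The bone genes with a wide domain were Runx1, described above, Sparc, Alpl and Atf4. Sparc, a collagen-binding matrix protein (chr11:55386101-55421000, 34.9 kb), had 2.07 and 2.22 in old and 2.00 and 2.01 in young samples. Atf4, a transcription factor of osteoblasts, shared a domain with Rps19bp1 (chr15:80253401-80265000, 11.6 kb) at 3.13 and 4.32 in old and 3.03 and 3.03 in young samples. Of the 5 domains of bone genes 2 were below 0 and 3 above. Adipogenic genes had 5 domains, 4 below 0, and chromatin and hypoxia regulators 11 with 3 below 0. Long noncoding RNA genes had 11 with 8 below 0 and cell cycle genes 10 with 5 below 0. None of these domains passed the test. Beside these counts, 42.8% of all wide domains were below 0, and by the test 0.771% of all peaks fell and 0.351% rose. Comp, a cartilage matrix protein, had 1.37 and 1.93 in old and 1.32 and 1.09 in young samples (chr8:70379001-70392000). The widest domain of the hypoxia and chromatin list was 56.0 kb at Arid5b (chr10:68086601-68142600), at 1.66 and 1.91 in old and 1.91 and 2.00 in young samples, and that of the cell cycle list 17.4 kb at Cdkn1b (chr6:134916301-134933700), an inhibitor of cyclin-dependent kinases, at 2.76 and 2.88 in old and 2.67 and 2.69 in young samples.

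Position along the other measures also moved with the direction. In the 455 wide domains with the lowest GC content, 35.4% to 46.6%, the median log2 fold change was -0.05 and 277 were lower in old, and in the 455 with the highest, 53.1% to 61.4%, it was 0.11 and 131 were lower. By density, the median was 0.13 in the 455 least dense and -0.05 in the 455 densest, with 127 and 290 lower. The 2 old samples did not share these patterns. Spearman's rho over the domains between GC content and the difference from the young mean was 0.04 in old replicate 1 and 0.35 in old replicate 2, and that with density was -0.50 and -0.09. These values are a description over 1820 domains that share their libraries, and the part of GC content and of depth in the direction of single domains was not tested further than by the GC and width correction. Within loci, 323 of 505 pairs of neighbouring wide domains (64%) had fitted values of the same sign. Over Zmiz1 all 8 were above 0, from 0.09 to 0.54, over Cemip all 4 were below 0, from -0.48 to -0.15, and over Fstl1 all 4 were below 0, from -0.38 to -0.16, loci picked after their values were seen.

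At the edge of the width rule, 50 wide domains were exactly 8 kb, of which 23 covered a start, and their densities over the 4 samples ran from 0.685 at Gbx1 to 9.27 at Crlf2. The first 3 of them along the genome were over Elk4 (3.5) and Ralgds (2.76) or inside Prrx1 (2.06). Just outside the rule, at 7.90 kb, the first 3 were over the starts of Klf7 (4.58), Adipor1 (2.98) and Frmd4a (3.03). A further limit of the rule is that 105 wide domains (5.77%) directly abut another peak, against 3.73% of autosomal peaks, where the peak caller may have divided 1 open stretch by the state of the samples. Width is then not fully separate from the comparison of old with young.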

How the data were processed

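The authors deposited 1 peak table of ATAC-seq for these 4 samples, with values named RPKM and written with decimal commas, which are treated here as a score. All deposited scores were whole multiples of 1 step per sample (tolerance 0.01 counts), so they are counts times a constant, not divided by peak length. The constant was taken as 10000000 over the library counts, which the multiples do not show. Per the labels, Bowtie2, Picard and mm10 were used; the study's methods describe chromstaR peaks (bins of 300 bp, steps of 100 bp) for its hypoxia and normoxia cells. All peaks fit GRCm38.

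Scores were divided by RLE factors, and log2(score + 1) was fitted for all 117282 peaks with limma 3.58.1 in R 4.3.3 (trend and robust moderation), old against young, with Benjamini-Hochberg adjustment over all peaks and thresholds of 0.01 and 0.05. Fold changes are on the log2(score + 1) scale. With 2 samples a group, the smallest p of an exact permutation test is 0.33. The fit was tested on simulated data with known folds, all larger than any change in a wide domain. The simulation gave old and young samples the same spread, so it does not cover the changes reported here. Genes came from GENCODE vM21 and sequences from RefSeq GRCm38.p6. Copies are words of 31 bases, sampled every 20 bases, found at more than 1 place. Summaries used Python 3.11.15, pandas 2.3.3, numpy 2.4.6 and matplotlib 3.10.9.

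Members and gene lists were chosen with earlier results of these data known. Domains named are those past 0.01 or 0.05, the 6 widest, the 5 largest rises and falls with all 4 pairs of samples alike, the 5 densest and 3 least dense, the 3 widest per list and the 3 on each side of 8 kb. Each takes the name of a protein-coding start it covers, else the gene it overlaps most, else the nearest start. Alternatives were scalings, pseudocounts of 0.1 and 5, a filter, autosomes alone, plain moderation, a replicate block, GC and width correction, widths of 6 and 10 kb, voom on the counts and leaving out each sample. A few genes of these lists, 1 with a domain past 0.05, are not reported here.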

Additional observations from a re-analysis of the deposited data

How the results depend on the processing

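At adjusted p under 0.01, 0 wide domains fell and 2 rose. The counts lower and higher were 2 and 0 on the values as deposited, 1 and 2 after quantile normalization, 0 and 0 with pseudocount 0.1, 0 and 0 after the filter on low values, 0 and 0 without trend and robust moderation, 4 and 2 with the GC and width correction, 2 and 3 with limma-voom on the counts, and 0 and 4 among peaks of 6 kb or more. At a threshold of 0.05 they were 7 and 9. Leaving out each sample gave 0 to 153 lower and 0 to 299 higher. The high counts came without old replicate 1 (153 and 299) and without old replicate 2 (29 and 35), fits in which the young pair alone sets the spread, and 0 and 0 came without either young sample. The deviations of same-numbered samples correlated at -0.099, and the labels name no shared batch, so the numbers were not taken as pairs; with the replicate block 2 fell and 6 rose.

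The median log2 fold change, 0.04, was -0.25 on the values as deposited, 0.087 after quantile normalization and -0.020 with the GC and width correction, chosen after seeing the data for this value, and 0.01 to 0.05 with a sample left out. The share lower, 42.8%, was 89.5%, 33.1% and 54.3% in turn, and 40.7% to 46.7% with a sample left out. The median minus that of all autosomal peaks, 0.03, was 0.073 after quantile normalization, -0.016 with the GC and width correction, and 0.0075 (without old replicate 2) to 0.049 (without young replicate 1) with a sample left out. The cause of these shifts was not tested.

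The 16 domains past 0.05 kept their direction under each of the 14 alternatives run for them. This was largely set in advance, since the groups did not overlap in any of the 16. The filter, the plain moderation and the replicate block also leave the fold change unaltered. Of the 16, 8 were past 0.05 on the values as deposited, 11 with equal summed signal, 12 after quantile normalization, 10 with pseudocount 0.1, 10 after the filter, 14 with the replicate block, 0 without trend and robust moderation, 1 without young replicate 1 and 0 without young replicate 2, and 16 under the others of the 14. With limma-voom 15 of the 16 were past 0.05 and all 16 kept their direction, the exception in the call being Mroh2a (adjusted p = 0.120). A covered start was counted in 1276 domains with starts of all gene types and in 1092 with starts within 1 kb, against 1081. With 2 samples a group and a median of 761 counts per domain, the counting error at the median domain was 0.052 on the log2 scale, against a median difference of 0.21 between the old samples.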

Other observations

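The X chromosome had 3 peaks of 8 kb or more among 2521 (0.119%), which are outside the autosomal rule. They lay over Timp1, an inhibitor of metalloproteinases (chrX:20866401-20879600, 13.2 kb), near Flna, filamin A (chrX:74212001-74220600, 8.6 kb), and over Morf4l2, a chromatin gene (chrX:136735301-136743300, 8 kb). Timp1 had a density of 2.43 and 2.47 in old and 2.90 and 2.88 in young samples, Flna 2.18 and 2.45 against 2.38 and 2.78, and Morf4l2 4.23 and 3.69 against 4.60 and 4.70. All X peaks together had a median log2 fold change of -0.16. A further peak of 8 kb or more was on the mitochondrial genome and was not analysed here.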
